A study of Mus musculus with 12 samples.

Results

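The genes described here carry peptides from inside the cell to its surface for T cells to read. They were measured by RNA-seq in bone marrow-derived mast cells (BMMCs), mast cells grown from mouse marrow. Members were all rows of the deposited count table with a symbol starting with H2-, the mouse name of the major histocompatibility complex (MHC), and 13 genes added by symbol, namely B2m, Tap1, Tap2, Tapbp, Psmb8, Psmb9, Psmb10, Cd74, Ciita, Nlrc5, Erap1, Calr and Pdia3. This gave 39 of the 16234 genes in the table. The rule uses names and no measured value, but it was set with earlier results of these data known. Of these 39, 28 passed the filter on low counts and were tested among 12208 genes, and 11 were not tested.

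The 12 libraries fall into 6 groups of 2, given by the labelled *Elk4* genotype and by treatment. *Elk4* encodes a ternary complex factor, a transcription factor of the ETS family. WT (wild-type), HZ (heterozygous) and KO (knockout) mice came from a conventional knockout on a C57BL/6N background, with WT littermates as controls, and were 6 to 12 weeks old and of both sexes. Their marrow was cultured with IL-3 and SCF for 4 to 8 weeks, and cultures were used when over 80% of cells were double positive for CD117 and FcεRI, the IgE receptor. Unstimulated cells were compared with cells loaded overnight with 0.5 µg/ml anti-DNP IgE and then given 100 ng/ml of the antigen DNP-HSA for 1 h. No group is labelled as given IgE alone, so effects of IgE loading and of antigen cannot be told apart. The labels do not say whether the 2 libraries of a group came from separate mice or cultures, so p-values measure only the spread between these libraries, which may be technical.

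Library totals lay between 29697958 and 35531667 counts, and the members took 0.527% to 0.638% of them. Mast cell genes were high in all libraries, with *Cpa3* at 15638 to 19599 and *Kit* at 4150 to 4979 TMM-scaled counts per library size (CPM). *Elk4* itself was at 73.2 and 78.3 CPM in unstimulated WT, 86.0 and 93.2 for HZ and 63.5 and 69.7 for KO, and at 67.0 to 78.2, 63.7 to 65.2 and 67.1 to 68.5 CPM after stimulation. These whole-gene counts did not show a loss of *Elk4* reads in the libraries labelled KO, so they do not check the genotype labels. The paper reports the *Elk4* deletion as shown by western blots of BMMCs of each genotype, a protein assay apart from these counts. WT, HZ and KO below name the labels.

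Class I molecules sit on nearly all nucleated cells. Peptides cut by the proteasome are pumped into the endoplasmic reticulum (ER) by the transporter TAP, trimmed, and loaded on a heavy chain paired with β2-microglobulin with the help of tapasin, calreticulin and ERp57. Class II molecules belong mainly to dendritic cells, macrophages and B cells, where the invariant chain guards the groove and the DM and DO proteins control which endosomal peptides are loaded. The transactivators NLRC5 and CIITA drive class I and class II transcription, and interferons induce much of both pathways. Mast cells carry class I, and can be induced to carry class II in some settings.

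For members that lead the class I pathway or the responses described below, 6 stretches before start sites are shown. That of *Psmb9* and *Tap1* is shown because these genes share the DNA between their starts. All 6 stretches were taken from RefSeq on build GRCm38.p6, which is not the build named for these counts. Each holds the 250 bases upstream of a start, except the *Psmb9*-*Tap1* stretch, which is the whole 225 bases between the 2 starts. Capitals mark matches, on either strand, to an interferon-stimulated response element core (GAAA, 2 bases of any kind and GAAA again), an NF-Y box (CCAAT), an NF-kappa B type site (GGG, 2 bases of any kind, TT, 1 base of any kind and CC) or, in *Calr*, an ER stress response element (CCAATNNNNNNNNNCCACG), whose first 5 letters overlap the NF-Y box.
Psmb9-Tap1, chr17:34187331-34187555, plus strand, read from *Psmb9* to *Tap1*: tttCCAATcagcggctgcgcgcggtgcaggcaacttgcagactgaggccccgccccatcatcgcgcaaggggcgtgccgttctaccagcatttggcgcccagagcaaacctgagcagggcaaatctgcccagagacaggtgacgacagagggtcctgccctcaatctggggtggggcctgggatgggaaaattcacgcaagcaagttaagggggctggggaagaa
H2-K1, chr17:34000348-34000597, minus strand: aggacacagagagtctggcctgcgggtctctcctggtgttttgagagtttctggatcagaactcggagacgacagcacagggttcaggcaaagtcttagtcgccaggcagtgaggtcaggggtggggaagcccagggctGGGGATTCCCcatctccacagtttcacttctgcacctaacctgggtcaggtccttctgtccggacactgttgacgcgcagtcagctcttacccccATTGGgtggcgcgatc
H2-D1, chr17:35262844-35263093, plus strand: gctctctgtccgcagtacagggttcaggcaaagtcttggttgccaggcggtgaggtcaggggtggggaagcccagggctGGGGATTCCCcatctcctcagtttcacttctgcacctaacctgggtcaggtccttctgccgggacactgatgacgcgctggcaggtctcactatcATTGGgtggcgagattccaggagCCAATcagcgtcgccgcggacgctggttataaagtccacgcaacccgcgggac
H2-T23, chr17:36032702-36032951, minus strand: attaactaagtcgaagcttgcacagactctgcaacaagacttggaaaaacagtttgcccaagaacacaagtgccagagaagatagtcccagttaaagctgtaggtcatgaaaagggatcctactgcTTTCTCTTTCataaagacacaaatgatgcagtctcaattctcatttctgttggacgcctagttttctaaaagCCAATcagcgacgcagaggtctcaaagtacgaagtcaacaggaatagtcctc
B2m, chr2:122147437-122147686, plus strand: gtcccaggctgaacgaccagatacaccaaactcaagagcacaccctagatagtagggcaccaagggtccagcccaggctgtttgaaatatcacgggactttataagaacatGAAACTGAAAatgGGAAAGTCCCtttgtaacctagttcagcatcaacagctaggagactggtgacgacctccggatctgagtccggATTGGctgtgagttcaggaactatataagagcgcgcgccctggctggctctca
Calr, chr8:84846932-84847181, minus strand: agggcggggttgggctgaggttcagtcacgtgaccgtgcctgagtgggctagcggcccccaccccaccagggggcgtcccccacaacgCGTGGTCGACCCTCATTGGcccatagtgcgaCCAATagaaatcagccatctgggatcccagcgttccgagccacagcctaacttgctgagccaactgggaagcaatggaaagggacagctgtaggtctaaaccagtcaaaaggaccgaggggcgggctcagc

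RefSeq windows of 300 bases (250 before and 50 after the start) were found for 32 of the 39 members, and for 21 of the 28 tested. A member was counted below where any of its windows matched. The percentages beside these counts are per window and not per gene, over 32851 windows of 27025 genes. An NF-Y box was present in 18 of these 21, and in 37.4% of all 32851 windows. The interferon-type core was present in *B2m*, *Erap1*, *H2-T22* and *H2-T23*, 4 of the 21, and in 3.44% of all windows. The NF-kappa B type letters occurred in *B2m*, *H2-D1*, *H2-K1*, *H2-Oa* and *H2-Q4*, 5 of the 21, and in 4.79% of all windows. A CRE-like X2 element (TGACGCA or TGACGTA) was found only in *Pdia3* among the 21, and in 3.33% of all windows, and the ETS core CCGGAAG only in *H2-DMa*, and in 8.86% of all windows. The ER stress response element was searched after the *Calr* values had been seen, and it was in *Calr* alone of the 21 and in 0.119% of all windows. A match describes letters only.

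Compared per gene length, as FPKM averaged over the 12 libraries, the class I pathway was high in these mast cells and the class II pathway was low. *B2m*, the light chain of class I, ranked 64 of 16234 genes with 719 FPKM. The classical heavy chains *H2-D1* and *H2-K1* were at 619 and 217 FPKM, and *H2-D1* exceeded *H2-K1* by 2.72-fold to 3.11-fold in every library. *H2-T23*, which encodes the Qa-1 heavy chain, had 421 FPKM and thus more than *H2-K1*.

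Among the loading genes, *Calr* (calreticulin) and *Pdia3* (ERp57), which fold many other ER proteins too, had 667 and 269 FPKM. The chains of the TAP transporter differed, *Tap2* at 138 and *Tap1* at 22.03 FPKM, and *Tap2* exceeded *Tap1* by 5.15-fold to 8.02-fold over the libraries. *Tapbp* (tapasin) had 70.5 FPKM and *Erap1*, the ER aminopeptidase, 6.82 FPKM. The inducible immunoproteasome subunits *Psmb8*, *Psmb10* and *Psmb9* were at 67.0, 18.1 and 17.3 FPKM.

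The remaining class Ib genes were lower, from *H2-T22* (16.2 FPKM), a ligand of some γδ T cells, through *H2-M3* (7.30), which presents formylated peptides, *H2-T24* (5.74), *H2-Q4* (5.42) and the pseudogene *H2-T-ps* (3.52) to *H2-Q1* (0.158). Class II genes ran from *H2-DMb1* at 25.9 FPKM, through *H2-Ob* (4.21), *H2-Oa* (3.47), the β chain *H2-Ab1* (2.61) and *H2-DMa* (1.76) to the invariant chain *Cd74* at 0.448. *H2-Ab1* had 71 to 131 counts in a library and *Cd74* 6 to 30. *H2-DMa* had 306 to 739 counts, so its FPKM below *H2-Ab1* rests on the gene length behind the deposited FPKM, which is not given. In GENCODE M21 the longest transcript of *H2-DMa* has 2005 bases and that of *H2-Ab1* 1212. The partner of *H2-Ab1*, the α chain *H2-Aa*, had 0 to 4 counts and was at 0 in 8 libraries. The transactivators *Nlrc5* and *Ciita* were at 0.0659 and 0.0622 FPKM, from 6 to 33 and 10 to 28 counts.

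Of the 11 members not tested, none exceeded 8 counts in a library. *H2-DMb2* and *H2-M5* had 0 to 8 counts, *H2-Eb1* 0 to 5, *H2-Q7* and *H2-Q6* 0 to 4, *H2-Q10* 0 to 2, and *H2-M10.2*, *H2-Q2* and *H2-T3* 0 or 1. *H2-Eb2* had 0 counts in all 12 libraries, which allows up to 0.0844 to 0.101 CPM without TMM by the floor of 3 counts a library, counting error only. The class II chains *H2-Aa* and *H2-Eb1* and the DM gene *H2-DMb2* were thus close to the detection limit in all groups, whereas *H2-Ab1*, *H2-DMa*, *H2-DMb1*, *H2-Oa* and *H2-Ob* were tested.

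**Figure D1:**
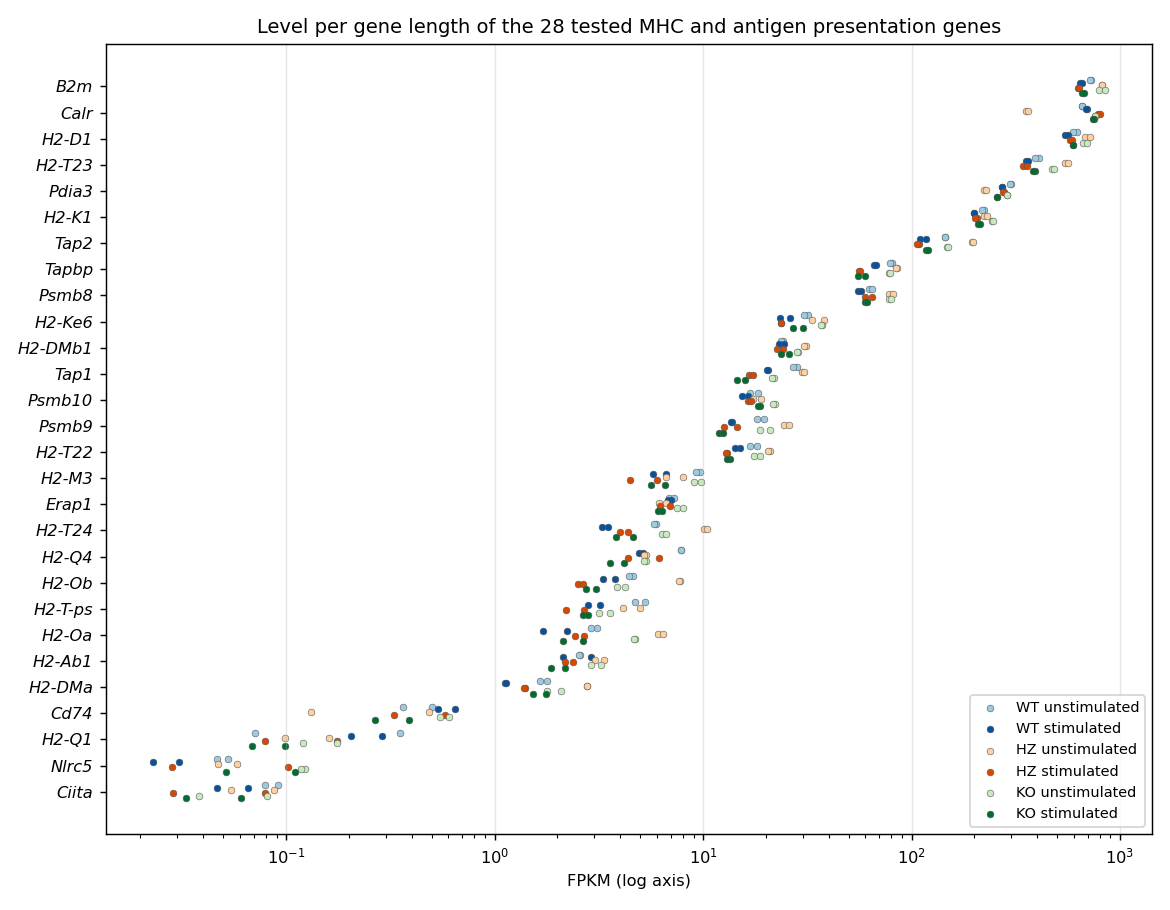
FPKM of the 28 tested members (log axis), with a point for each library coloured by group and genes ordered by their mean over 12 libraries. *B2m* stands at the top with a mean of 719 FPKM and *Ciita* at the bottom with 0.0622, and the 2 unstimulated HZ points of *Calr* lie apart below the other groups.

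Some members share sequence with relatives, which bears on how reads are assigned to them. In transcripts of GENCODE M21, 94.2% of the 75-base stretches of *H2-Ke6* also occur in a readthrough gene, 19.6% of those of *H2-T22* in *H2-T10* or other genes, and 19.1% of those of *H2-DMb1* in *H2-DMb2* or other genes. The shares were 12.1% for *H2-Q1*, 11.0% for *H2-T-ps*, 7.22% for *H2-Q4*, 7.01% for *H2-T23*, 6.90% for *H2-D1* and 1.33% for *H2-K1*, and how reads from such stretches were assigned was not tested. No shared stretch was found for *B2m*, *Calr*, *Pdia3*, *Tap1*, *Tap2*, *Psmb8*, *Psmb9*, *Psmb10*, *Erap1*, *H2-DMa*, *H2-Oa* or *H2-Ob*. *H2-Ke6* sits in the MHC by position but encodes a hydroxysteroid dehydrogenase, and is counted as a member by its symbol only.

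The response to IgE and antigen together was asked first within each genotype label, with edgeR quasi-likelihood F tests. A gene passed where its Benjamini-Hochberg p, adjusted over 12208 genes, was below 0.05. In WT cells, 9 of the 28 members rose and 3 fell, against 22.4% higher and 22.9% lower among all genes tested. In HZ cells, 4 rose and 15 fell (background 32.9% and 31.6%). In KO cells, 4 rose and 7 fell (background 20.4% and 20.5%). The median log2 fold change of the members was 0.05 in WT, -0.21 in HZ and -0.09 in KO, beside -0.01, -0.00 and -0.01 over all genes.

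Most of these changes were small. At 2-fold the responses held 0 higher and 0 lower members in WT (background 3.71% and 3.06%), 1 and 3 in HZ (7.02% and 7.28%), and 0 and 0 in KO (3.73% and 2.88%). Over the 9 comparisons within and between groups, 115 of 252 member results passed, of which 96 were under 1.5-fold and 6 were at least 2-fold. Direction on stimulation also depends on scaling, because TMM factors were 1.08 to 1.12 before stimulation but 0.902 to 0.924 after it. With library totals in place of TMM, the median of all genes moved by -0.31 in WT, -0.23 in HZ and -0.29 in KO. The members passing became 1 higher and 19 lower in WT, with 2 and 18 for HZ and 0 and 21 for KO. Of all 12208 genes tested, 842 passed higher and 7397 lower in WT under that scaling. The same counts of all genes were 2447 and 5902 for HZ and 858 and 7296 for KO. Changes are given below relative to the TMM reference. FPKM carry the library-total scaling and are used only to compare genes or to form ratios of genes, within a library or between group means.

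*Calr* had the greatest rise among the members that passed in each genotype. It had 1146 and 1134 CPM in unstimulated WT, 635 and 649 for HZ and 1330 and 1344 for KO. After stimulation it had 1500 and 1482 CPM for WT, 1648 and 1698 for HZ and 1612 and 1600 for KO. The 3 unstimulated groups did not overlap, with HZ lowest, and the 3 stimulated groups lay much closer together. *Calr* rose 1.31-fold in WT (log2 0.39 ± 0.02 SE, edgeR adjusted p = 3.81e-19), 2.61-fold in HZ (1.38 ± 0.02, adjusted p = 1.48e-41) and 1.20-fold in KO (0.26 ± 0.02, adjusted p = 2.29e-13). The KO rise turned to -0.02 with library totals.

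*Pdia3* followed the same order. It had 712 and 695 CPM in unstimulated WT, 541 and 560 for HZ and 689 and 692 for KO, and 794 and 791, 795 and 795, and 751 and 755 CPM after stimulation. The unstimulated HZ libraries lay below all the others. Its log2 change was 0.17 ± 0.03 in WT, 0.53 ± 0.03 in HZ and 0.13 ± 0.03 in KO, with edgeR adjusted p of 3.49e-07, 9.2e-23 and 0.000103, and the WT and KO changes were -0.14 and -0.16 with library totals.

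The TAP genes fell in HZ. *Tap2* was at 324 and 320 CPM in unstimulated WT, 449 and 453 for HZ and 335 and 338 for KO, and at 303 and 323, 291 and 287, and 323 and 330 CPM after stimulation. The unstimulated HZ libraries stood above all others and the stimulated HZ libraries below all others. The change was -0.64 ± 0.03 in HZ (edgeR adjusted p = 9.73e-23) and -0.04 ± 0.03 in WT and in KO, where it did not pass (adjusted p = 0.315 and 0.304).

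*Tap1* had 72.4 and 69.0 CPM in unstimulated WT, 79.0 and 81.4 for HZ and 57.2 and 55.7 for KO. After stimulation it had 64.9 and 64.6 CPM for WT, 51.7 and 54.2 for HZ and 46.4 and 50.6 for KO. KO was lowest in both states, and stimulated values lay below unstimulated ones in each genotype. *Tap1* fell by 0.60 ± 0.06 on the log2 scale in HZ and by 0.22 ± 0.06 in KO, with edgeR adjusted p of 5.84e-13 and 0.002, and its WT value of -0.13 ± 0.06 did not pass (adjusted p = 0.061). The KO call was lost without stimulated KO replicate 1 (adjusted p = 0.0898).

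*Psmb9*, transcribed away from *Tap1* across the 225 bases printed above, had 18.1 and 19.5 CPM in unstimulated WT, 25.1 and 26.5 for HZ and 21.1 and 19.0 for KO. Stimulated libraries had 16.9 and 16.8 CPM for WT, 17.5 and 15.3 for HZ and 14.6 and 15.4 for KO. The highest values were again those of unstimulated HZ. *Psmb9* fell in HZ (-0.65 ± 0.10, edgeR adjusted p = 1.11e-07) and KO (-0.42 ± 0.10, adjusted p = 0.000634), with -0.16 ± 0.10 in WT (adjusted p = 0.205). *Tapbp* fell in HZ (-0.35) and KO (-0.15), and *Erap1* rose by 0.28 in WT and 0.26 in HZ, the former at -0.03 with library totals. The KO call of *Tapbp* was lost without stimulated KO replicate 2, and the HZ call of *Erap1* with library totals or without stimulated HZ replicate 2.

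*Psmb8* was at 68.7 and 70.4 CPM in unstimulated WT, 88.6 and 92.5 for HZ and 86.5 and 88.9 for KO, and at 75.2 and 77.5, 79.6 and 85.8, and 81.1 and 82.9 CPM after stimulation. Unstimulated WT was lowest and did not overlap with the other groups. *Psmb8* rose in WT (0.13 ± 0.05, edgeR adjusted p = 0.0297, but -0.17 with library totals) and fell in HZ (-0.13 ± 0.05, adjusted p = 0.0199), with -0.10 ± 0.05 in KO (adjusted p = 0.129). The WT call was lost without unstimulated WT replicate 1 or stimulated WT replicate 2, and the HZ call without unstimulated HZ replicate 2 or stimulated HZ replicate 1 (adjusted p up to 0.304). *Psmb10* did not pass in any of the 3, at 0.17, 0.11 and 0.05.

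Each inducible subunit replaces a constitutive one, *Psmb8* taking the place of *Psmb5*, *Psmb9* of *Psmb6* and *Psmb10* of *Psmb7*. The ratio of group mean FPKM depends on scaling only through the weight of each of the 2 libraries. By this ratio *Psmb6* exceeded *Psmb9* by 1.88-fold in unstimulated HZ and by 3.86-fold in stimulated HZ. The same ratio was 2.49 and 3.11 in WT, and 3.14 and 3.95 in KO. *Psmb5* was at 0.942 times *Psmb8* in unstimulated HZ and 1.51 times after stimulation, at 1.22 and 1.32 times in WT, and at 1.32 and 1.45 times in KO. *Psmb7* over *Psmb10* stayed between 3.09 and 4.04 in all 6 groups.

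**Figure D2:**
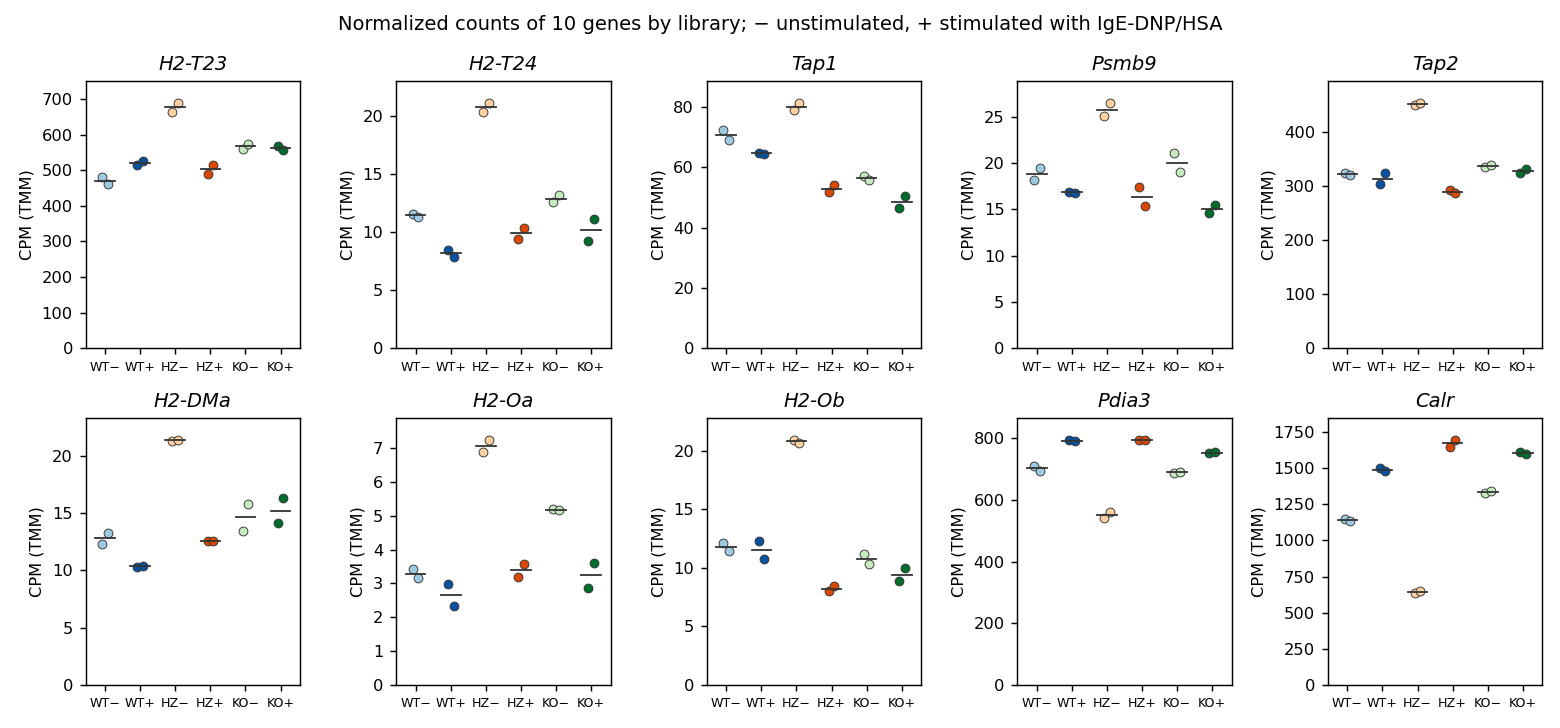
Normalised counts (CPM with TMM scaling, axes from 0) of 10 members, with a point for each library, a line at the mean of 2 libraries, and groups ordered WT, HZ and KO, unstimulated before stimulated. Unstimulated HZ is highest for *H2-T23*, *H2-T24*, *Tap1*, *Psmb9*, *Tap2*, *H2-DMa*, *H2-Oa* and *H2-Ob* and lowest for *Pdia3* and *Calr*.

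Class I heavy and light chains moved little. *B2m* had 558 and 552 CPM in unstimulated WT, 651 and 651 for HZ and 619 and 660 for KO. After stimulation it had 610 and 626 CPM for WT, 587 and 595 for HZ and 622 and 639 for KO. Unstimulated WT was lowest, and the WT values rose (0.16 ± 0.03, edgeR adjusted p = 1.25e-05) while the HZ values fell (-0.14 ± 0.03, adjusted p = 3.84e-05), with -0.02 ± 0.03 in KO (adjusted p = 0.627). The WT rise became -0.15 with library totals.

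*H2-D1* had 968 and 923 CPM in unstimulated WT, 1089 and 1153 for HZ and 1042 and 1097 for KO, and 1044 and 1085, 1080 and 1114, and 1143 and 1145 CPM after stimulation. All groups except unstimulated WT lay between 1042 and 1153 CPM. It rose by 0.17 ± 0.03 in WT and 0.10 ± 0.03 in KO, with edgeR adjusted p of 1.84e-06 and 0.00427, but these were -0.14 and -0.19 with library totals. *H2-K1* rose by 0.18, 0.07 and 0.08 in WT, HZ and KO, and these values were -0.13, -0.16 and -0.21 with library totals. The *H2-D1* call in KO was lost without unstimulated KO replicate 1. The *H2-K1* call was lost in HZ without unstimulated or stimulated HZ replicate 1, and in KO without either unstimulated KO library or stimulated KO replicate 2.

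Among class Ib genes *H2-T23* was at 481 and 461 CPM in unstimulated WT, 665 and 689 for HZ and 562 and 574 for KO. After stimulation it was at 514 and 527 CPM for WT, 491 and 515 for HZ and 568 and 558 for KO. The HZ values dropped from the highest of all groups to the level of stimulated WT. *H2-T23* fell in HZ (-0.43 ± 0.03, edgeR adjusted p = 1.83e-17), rose in WT (0.14 ± 0.03, adjusted p = 7.39e-05, but -0.16 with library totals), and had -0.01 ± 0.03 in KO (adjusted p = 0.789).

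*H2-T24* had 11.6 and 11.3 CPM in unstimulated WT, 20.4 and 21.1 for HZ and 12.6 and 13.2 for KO, from 384 to 708 counts. After stimulation it had 8.48 and 7.89 CPM for WT, 9.45 and 10.4 for HZ and 9.24 and 11.2 for KO. It was lower after stimulation in every genotype, and unstimulated HZ stood far above the rest. It fell 2.10-fold in HZ (-1.07 ± 0.12, edgeR adjusted p = 8.45e-11), and by 0.48 ± 0.13 and 0.34 ± 0.12 in WT and KO (adjusted p = 0.00156 and 0.0245). The KO call was lost on leaving out unstimulated KO replicate 1 or 2 or stimulated KO replicate 1, with log2 values from -0.48 to -0.21 over the libraries left out. *H2-T22* fell in HZ (-0.44) and KO (-0.17), *H2-T-ps* in HZ (-0.67), *H2-Q4* in WT (-0.33, adjusted p = 0.0497 by edgeR) and *H2-M3* in KO (-0.34, adjusted p = 0.0487). The *H2-Q4* call was lost in 8 of 12 alternatives, including DESeq2 and each WT library left out, and that of *H2-M3* in 5, including DESeq2. The KO call of *H2-T22* was lost in 4, including DESeq2, and the HZ call of *H2-T-ps* in 2, without unstimulated HZ replicate 2 or stimulated HZ replicate 1.

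Class II processing genes fell mainly in the HZ libraries, where 4 of 6 tested class II members passed lower (31.6% of all genes did), with 1 higher and 1 lower in WT and 1 lower in KO. *H2-Oa* and *H2-Ob* encode the 2 chains of DO, which restrains DM. *H2-Ob* had 12.1 and 11.5 CPM in unstimulated WT, 20.9 and 20.7 for HZ and 11.2 and 10.3 for KO, and 12.3 and 10.7, 7.98 and 8.46, and 8.88 and 9.94 CPM after stimulation. HZ went from the highest to the lowest group. *H2-Ob* fell 2.53-fold in HZ (-1.34 ± 0.12, edgeR adjusted p = 1.73e-13) and did not pass in WT (-0.04 ± 0.12, adjusted p = 0.843) or KO (-0.19 ± 0.13, adjusted p = 0.234).

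*H2-Oa*, with 69 to 239 counts, had 3.41 and 3.17 CPM in unstimulated WT, 6.88 and 7.25 for HZ and 5.20 and 5.16 for KO. Stimulated libraries had 3.00 and 2.32 CPM for WT, 3.20 and 3.59 for HZ and 2.88 and 3.61 for KO. The unstimulated groups did not overlap, and after stimulation KO overlapped with both WT and HZ. It fell 2.08-fold in HZ (-1.06 ± 0.20, edgeR adjusted p = 1.33e-05) and by 0.67 ± 0.21 in KO (adjusted p = 0.0082), with -0.31 ± 0.22 in WT (adjusted p = 0.274). The KO call was lost without stimulated KO replicate 1 (-0.52, adjusted p = 0.121).

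The DM chains, which exchange class II peptides, were *H2-DMa* and *H2-DMb1*. *H2-DMa* had 12.3 and 13.3 CPM in unstimulated WT, 21.3 and 21.4 for HZ and 13.4 and 15.8 for KO, and 10.3 and 10.4, 12.6 and 12.6, and 14.1 and 16.3 CPM after stimulation. It fell in HZ (-0.76 ± 0.11, edgeR adjusted p = 6.5e-08) and WT (-0.30 ± 0.12, adjusted p = 0.0323), and was at 0.06 ± 0.11 in KO (adjusted p = 0.72). *H2-DMb1* had 27.9 and 27.1 CPM in unstimulated WT, 37.2 and 36.2 for HZ and 33.3 and 32.9 for KO, and 32.9 and 34.8, 33.7 and 31.7, and 36.8 and 33.6 CPM after stimulation. Unstimulated WT was lowest for *H2-DMb1*, which rose in WT (0.30 ± 0.08, edgeR adjusted p = 0.00106, at -0.01 with library totals) and fell in HZ (-0.16 ± 0.07, adjusted p = 0.0487). That HZ call was lost in 6 of 12 alternatives, among them DESeq2 and leaving out any HZ library (adjusted p up to 0.267). The WT fall of *H2-DMa* was lost with DESeq2 and without unstimulated WT replicate 2 or either stimulated WT library (adjusted p up to 0.217).

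The low genes *H2-Ab1*, *Cd74*, *H2-Q1*, *Ciita* and *Nlrc5* did not pass in any of the 9 comparisons. *H2-Ab1*, the class II β chain, had 91 and 95 counts in unstimulated WT, 116 and 122 for HZ and 131 and 111 for KO, and 114 and 84, 101 and 84, and 80 and 71 counts after stimulation. *Cd74*, the invariant chain, had 21 and 16 counts in unstimulated WT, 6 and 21 for HZ and 29 and 25 for KO, and 30 and 25, 29 and 15, and 17 and 12 counts after stimulation. In *H2-Ab1* unstimulated WT lay below unstimulated HZ and KO, and in *Cd74* unstimulated HZ overlapped with WT. *Nlrc5* had 11 and 13 counts in unstimulated WT, 12 and 14 for HZ and 33 and 30 for KO, and 6 and 8, 8 and 26, and 27 and 13 counts after stimulation. The unstimulated KO libraries had the highest counts, at 1.28 ± 0.64 against WT on the log2 scale (edgeR adjusted p = 0.0983). At such counts changes of this size could not be separated from the spread.

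**Figure D3:**
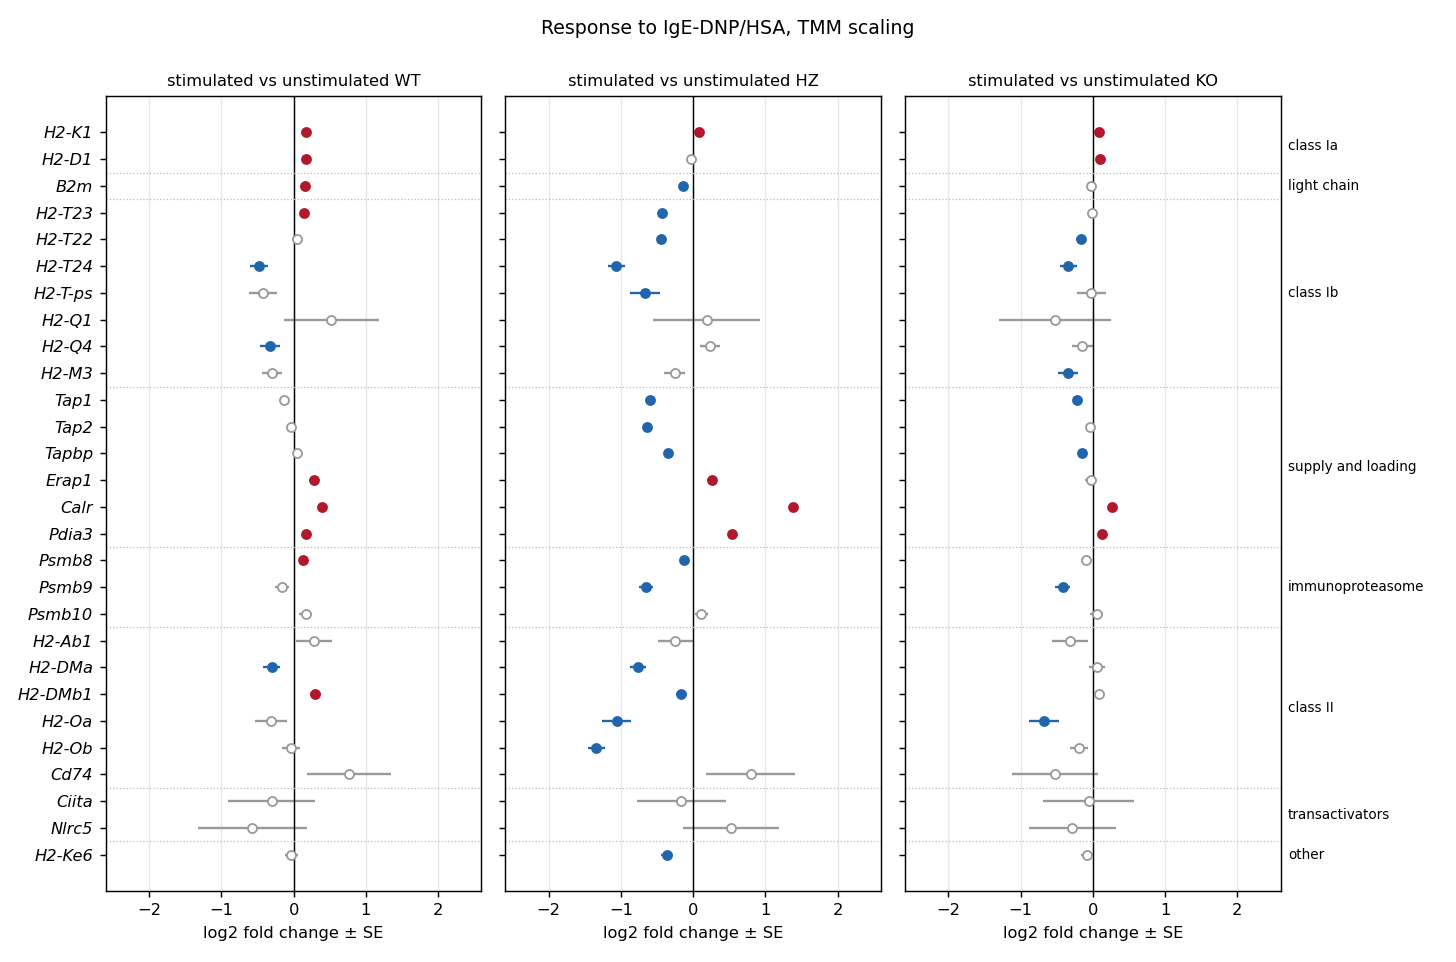
Log2 fold change on stimulation (± SE, n = 2 against 2 libraries) for the 28 tested members in WT, HZ and KO, grouped by role. Red and blue points passed an edgeR adjusted p of 0.05 as higher and lower, and open grey points did not. In HZ 15 members lie lower and 4 higher under TMM. With library totals the rises of *H2-K1*, *H2-D1*, *B2m*, *H2-T23*, *Erap1*, *Pdia3*, *Psmb8* and *H2-DMb1* in WT, of *H2-K1* in HZ, and of *H2-K1*, *H2-D1*, *Calr* and *Pdia3* in KO turned negative.

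The unstimulated libraries were compared between genotype labels next. In HZ against WT, 16 of 28 members were higher and 3 lower, beside a background of 25.4% and 26%. In KO against WT, 10 were higher and 3 lower (22.9% and 21.7%). In KO against HZ, 6 were higher and 10 lower (23.4% and 21.8%). At 2-fold, 1 was higher and 0 lower in HZ against WT (3.83% and 5.32%), 0 and 0 in KO against WT (2.64% and 4.87%), and 1 and 0 in KO against HZ (1.29% and 2.06%). DESeq2 size factors gave 4 higher and 12 lower in KO against HZ. The members' median log2 difference was 0.21 for HZ against WT and 0.17 for KO against WT, beside 0.00 and 0.02 over all genes. These comparisons share libraries with each other and with the responses above, the unstimulated HZ pair entering both the HZ response and the HZ differences.

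The HZ libraries were higher than WT in all of *H2-K1*, *H2-D1*, *B2m*, *Tap1*, *Tap2*, *Tapbp*, *Psmb8* and *Psmb9*, and in 4 of 6 class II members. *H2-Oa* was 2.15-fold higher (1.10 ± 0.20, edgeR adjusted p = 9.53e-06). *H2-T24*, *H2-Ob* and *H2-DMa* were higher by 0.86 ± 0.12, 0.82 ± 0.12 and 0.74 ± 0.11, with edgeR adjusted p of 2e-08, 4.99e-08 and 1.64e-07. *H2-T23*, *Tap2* and *Psmb9* were higher by 0.52, 0.49 and 0.46, and *B2m*, *H2-D1* and *H2-K1* by 0.23, 0.25 and 0.10. The members lower in HZ were *Calr* (-0.83 ± 0.02, or 1.78-fold, edgeR adjusted p = 1.14e-31), *Pdia3* (-0.35 ± 0.03, adjusted p = 4.6e-16) and *H2-Q4* (-0.53 ± 0.14, adjusted p = 0.0013). The *H2-K1* and *Tap1* calls were lost without unstimulated WT replicate 2 or unstimulated HZ replicate 2, and those of *H2-K1* and *Tapbp* with library totals, under which 14 members were higher and 4 lower.

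Against WT, the KO libraries differed as follows. *H2-K1*, *H2-D1*, *B2m* and *H2-T23* were higher by 0.17, 0.18, 0.20 and 0.27, *Psmb8* and *Psmb10* by 0.33 and 0.34, *H2-DMb1* by 0.27, *Calr* by 0.23 and *H2-Oa* by 0.65 ± 0.21 (edgeR adjusted p = 0.00778). The *H2-Oa* call was lost without unstimulated WT replicate 2 (adjusted p = 0.0612), and that of *H2-T-ps* below without unstimulated WT replicate 1 or KO replicate 2. *Tap1* was lower in KO (-0.33 ± 0.06, edgeR adjusted p = 3.74e-06) although *Psmb9*, on the other side of their shared stretch, was at 0.09 ± 0.10 (adjusted p = 0.455). *H2-Q4* and *H2-T-ps* were lower by 0.56 and 0.54 on the log2 scale. The pseudogene *H2-T-ps* had 6.07 and 5.43 CPM in unstimulated WT, 4.92 and 5.97 for HZ and 4.19 and 3.72 for KO, and 4.58 and 4.00, 3.08 and 3.79, and 3.81 and 4.00 CPM after stimulation.

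KO and HZ differed directly. *Calr* was 2.08-fold higher in KO (1.06 ± 0.02, edgeR adjusted p = 1.34e-35), and *Pdia3* was higher by 0.33 ± 0.03. *H2-Ob*, *H2-T24*, *H2-DMa*, *Tap1* and *Tap2* were lower in KO, with log2 differences of -0.95, -0.69, -0.55, -0.51 and -0.42. *H2-Ke6*, which is no presentation gene, had 27.6 and 26.1 CPM in unstimulated WT, 29.8 and 34.1 for HZ and 32.5 and 32.1 for KO, and 24.8 and 27.8, 24.8 and 24.7, and 28.9 and 32.2 CPM after stimulation. It was higher than WT in both unstimulated HZ (0.25) and KO (0.27), calls lost without unstimulated WT replicate 2 and, for HZ, without unstimulated HZ replicate 2.

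After stimulation fewer members differed between HZ and the others. In HZ against WT, 1 member was higher and 5 lower, beside a background of 18.4% and 16.5%. *Calr* was higher by 0.17 ± 0.02, and *H2-Ob*, *Tap1*, *Tapbp*, *H2-T22* and *Tap2* were lower, at -0.48, -0.29, -0.27, -0.21 and -0.11. The *Tap2* call was lost without stimulated WT replicate 2 or stimulated HZ replicate 2, that of *H2-Ob* without stimulated WT replicate 1, and that of *H2-T22* without stimulated WT replicate 1 or stimulated HZ replicate 2. In KO against HZ, 5 were higher and 2 lower (12.9% and 12%), with *Tap2* at 0.18, *H2-T23* at 0.16 and *B2m* at 0.09 among the higher. The *B2m* call was lost with library totals and without stimulated HZ replicate 1 or KO replicate 2.

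In stimulated KO against WT, 8 members were higher and 4 lower, beside 21.2% and 19.2%. *H2-DMa* had the highest value of those passing, at 0.55 ± 0.12 (edgeR adjusted p = 0.000145), and *Tap1* the lowest, at -0.42 ± 0.06 (adjusted p = 7.48e-08). *Tapbp* was at -0.21 and *H2-Q4* at -0.38. *H2-D1*, *H2-K1* and *H2-T23* were higher by 0.10, 0.08 and 0.11. The *H2-K1* call was lost in 5 of 11 alternatives, including DESeq2 and its size factors, that of *H2-Q4* in 4, including DESeq2, and that of *H2-D1* without stimulated WT replicate 1. *Tap1* was thus lower in KO than in WT in both states. With DESeq2 size factors this comparison held 4 higher and 5 lower members. At 1.5-fold no member passed between stimulated genotypes, 0 higher and 0 lower by edgeR, beside a background of 5.44% and 7.22% for KO against WT, 3.56% and 4.33% for HZ against WT, and 1.81% and 3.51% for KO against HZ. Without a size threshold, library totals gave 4 higher and 5 lower in HZ against WT and 3 and 4 in KO against HZ. Over all genes that scaling gave 2631 higher and 1732 lower in HZ against WT, and 1263 and 1843 in KO against HZ.

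**Figure D4:**
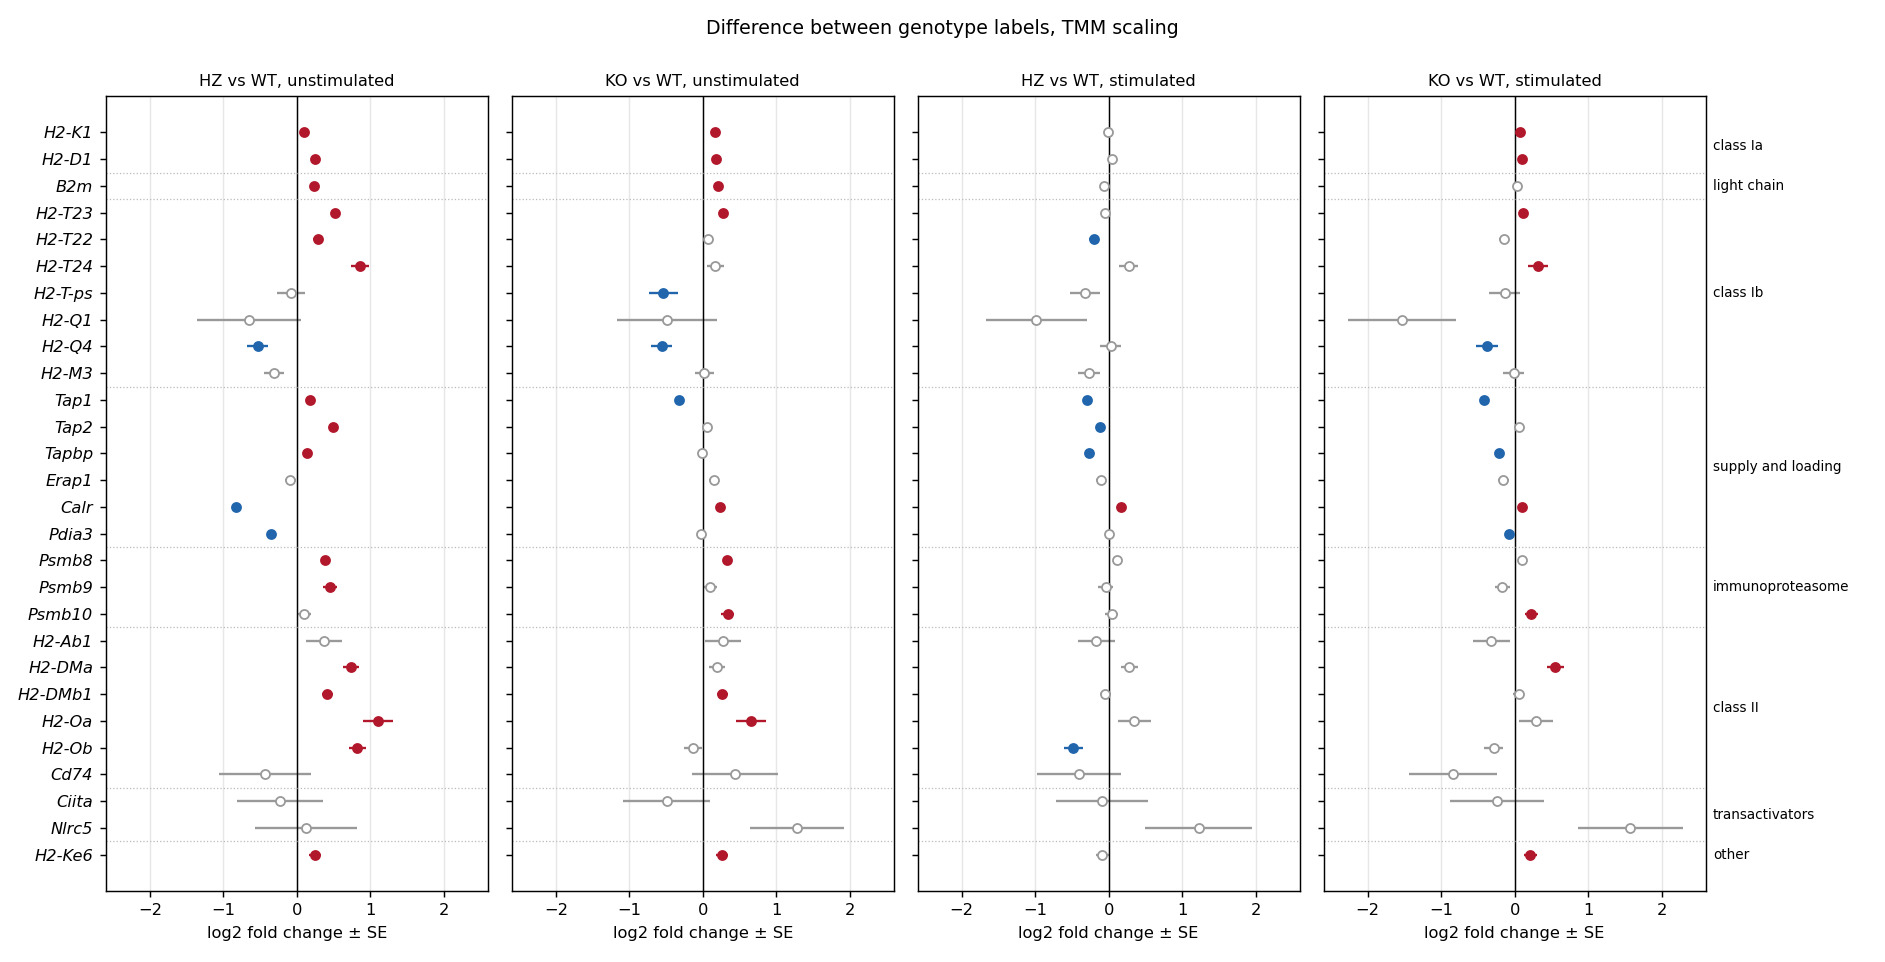
Log2 difference (± SE, n = 2 against 2 libraries) of HZ and of KO from WT, before and after stimulation, for the 28 tested members by role. Red and blue points passed an edgeR adjusted p of 0.05 as higher and lower, and open grey points did not. Unstimulated HZ shows 16 higher and 3 lower members, and stimulated HZ 1 higher and 5 lower.

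Whether the response itself differed was tested as an interaction in the same model, and here passing also took a 1.5-fold difference in response. For HZ minus WT, 1 member passed higher and 3 lower, beside a background of 8.4% and 5.2%. *Calr* had the stronger rise in HZ (0.99 ± 0.03, edgeR adjusted p = 1.95e-28). *H2-Ob* (-1.31 ± 0.17, adjusted p = 1.93e-08), *Tap2* (-0.60 ± 0.05, adjusted p = 1.89e-15) and *H2-Oa* (-0.75 ± 0.30, adjusted p = 0.0452) had the lower response. The *H2-Oa* value lost its call without any one of unstimulated WT replicate 1 or 2, stimulated WT replicate 1, or the 4 HZ libraries, and ran from -0.92 to -0.55. The *Tap2* value kept an adjusted p below 0.05 under all 16 alternatives. At its smallest it was -0.52 over the other settings and -0.55 with a library left out, both under 1.5-fold.

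With no threshold on size, 3 members had a higher and 16 a lower response in HZ than in WT (background 19.9% and 18.6%), the lower ones including *H2-T24* (-0.58), *H2-T23* (-0.57), *H2-T22* (-0.49), *Psmb9* (-0.49), *Tap1* (-0.47), *Tapbp* (-0.40) and *B2m* (-0.29). For KO minus WT, edgeR passed 0 higher and 0 lower members at 1.5-fold, beside a background of 1.28% and 0.508%. DESeq2 gave 0 and 0 as well, and at an unadjusted p below 0.05 in edgeR 1 member was higher and 8 were lower, none of them by 1.5-fold. The share of all genes at that unadjusted p was not counted, so these member counts have no background. With no threshold on size 0 passed higher and 6 lower (background 5.44% and 3.83%), namely *Erap1* (-0.31), *Psmb8* (-0.23), *Tapbp* (-0.20), *B2m* (-0.18), *H2-T23* (-0.16) and *Calr* (-0.12).

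Genes that work beside the members were counted by lists. The background of these counts is the share of all genes tested, of which WT had 22.4% rising and 22.9% falling, HZ 32.9% and 31.6%, and KO 20.4% and 20.5%. For unstimulated HZ against WT it is 25.4% higher and 26% lower. Of the 10 other ER chaperones and editors 7 rose in WT, while HZ had 9 and KO 5, and 9 were lower in unstimulated HZ than in WT. *Hspa5* (BiP), the main ER chaperone, rose by 1.11, 2.26 and 1.05 on the log2 scale in WT, HZ and KO, and was at -1.02 in unstimulated HZ against WT and 1.06 in KO against HZ. In HZ, *Calr* and *Pdia3* moved in the direction of most of this list, and *Tap1* and *Tap2* in the other. With library totals the list held 2 higher and 7 lower in WT, with 7 and 1 for HZ and 2 and 7 for KO, so only its HZ rise kept its direction. The 6 constitutive proteasome and PA28 genes held 6 higher in WT, 6 in HZ and 3 in KO, and with library totals 5 rose in HZ while 2 fell in WT and 3 in KO.

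Of 11 tested factors that act on MHC promoters, 7 fell in each genotype on stimulation, and 2 rose in HZ. *Irf1*, an interferon-induced activator of class I and immunoproteasome genes, fell by 1.08 in HZ on the log2 scale, and was at -0.38 in WT and -0.74 in KO. Of 8 interferon receptor, kinase and STAT genes, 4 fell and 1 rose in WT, while 7 fell in HZ and 3 in KO, and 4 were higher in unstimulated HZ than in WT. With library totals the promoter factors held 11, 8 and 11 lower members and 0 higher, the interferon list held 7, 7 and 7 lower and 0 higher, and 2 of the interferon list were higher in unstimulated HZ than in WT. Of 6 tested cytosolic peptidases, WT and HZ each had 4 that rose and KO had 3, with 1 that fell in each genotype. With library totals 1 rose and 3 fell in WT, with 2 and 2 for HZ and 1 and 4 for KO.

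Among 8 tested class II proteolysis and turnover genes, 3 rose in WT, 3 rose and 3 fell in HZ, and 1 rose and 4 fell in KO. *Ctsl*, an endosomal protease that can cut the invariant chain, rose by 3.35, 3.55 and 2.41 on the log2 scale in WT, HZ and KO. *Ctsl* was also at 1.08 in unstimulated KO against HZ. *Lgmn*, the endosomal protease legumain, had 4 to 7 counts in unstimulated WT, 34 to 44 in HZ and 94 to 103 in KO, and 5 to 7, 16 to 24 and 33 to 36 after stimulation. It was higher than unstimulated WT by 2.80 in HZ and 4.03 in KO, and fell by 1.14 on the log2 scale in stimulated KO. *Ctss* (cathepsin S) had 21 to 39, 2 to 9 and 16 to 28 counts before stimulation and 22 to 26, 8 to 21 and 2 to 3 after it, and its KO fall passed (edgeR adjusted p = 0.00888). *Ifi30*, a thiol reductase, was at -1.01 in stimulated KO against HZ. With library totals 1 gene of this list rose and 5 fell in WT, with 2 and 5 for HZ and 1 and 7 for KO.

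Of 7 tested class I-like genes outside the H2 symbols, 1 fell in WT, 3 fell and 1 rose in HZ, and 2 fell in KO. *Mill2* fell by 1.05 in WT and 2.01 in HZ on the log2 scale, and was higher in stimulated KO than in WT and HZ by 1.05 and 1.20. *Cd1d1*, which presents lipids, fell by 1.53 in HZ. *Fcgrt*, the neonatal Fc receptor, had 0 to 1 count in the WT libraries, 2 to 11 in HZ and 11 to 35 in KO. With library totals 3, 3 and 4 of this list were lower and 0 higher.

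Of 6 tested co-stimulation genes, 3 rose and 1 fell in WT, with 2 and 2 for HZ and 2 and 1 for KO. *Tnfsf9* (4-1BB ligand) rose by 4.27, 4.14 and 3.94 on the log2 scale, more than any member in each genotype. *Pdcd1lg2* (PD-L2) rose by 1.11 in WT and 1.62 in HZ, and was at 1.08 in unstimulated KO against HZ. *Tnfsf4* (OX40 ligand) rose by 1.22 in KO, and was lower than unstimulated WT by 1.15 in HZ and 2.31 in KO, and than stimulated WT by 1.55 and 1.76. *Icosl*, the ICOS ligand, fell by 1.28 in WT and was at 1.01 in stimulated HZ against WT. *Cd86*, a ligand of CD28, had 4 to 28 counts in the WT libraries, 0 to 2 in HZ and 0 to 4 in KO. With library totals 3 of this list rose and 2 fell in WT, and 2 and 2 in HZ and in KO.

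Markers of cells that carry class II are given because class II members differed between groups. In bulk RNA, fewer cells of a type and less RNA per cell cannot be told apart. Of 6 dendritic cell markers, *Flt3*, *Batf3* and *Cd209a* had at most 1 count, and *Itgax* carried nearly the whole sum. That sum was 5.63 to 7.61 CPM in unstimulated WT, 1.33 to 1.35 in HZ and 1.52 to 1.89 in KO, and 4.41 to 5.20, 1.46 to 1.66 and 0.791 to 1.32 after stimulation, so before stimulation it was lower in HZ than in WT, while *H2-Oa*, *H2-Ob* and *H2-DMa* were higher.

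The 11 macrophage and monocyte markers summed to 48.0 to 50.4 CPM in unstimulated WT, 92.8 to 94.7 in HZ and 115 to 120 in KO, and to 62.3 to 63.1, 96.0 to 97.3 and 123 to 135 after stimulation. *C1qa*, *C1qb*, *C1qc* and *Mrc1* were near 0 with at most 6 counts, and *F13a1* had 18 to 2217. The sum was higher in HZ and KO than in WT, but of 6 tested genes of the list 3 were higher and 1 lower in unstimulated HZ against WT, and 2 higher and 0 lower in KO against WT. The part of this list in the members' values was not tested. The 11 mast cell markers summed to 46890 to 47958 CPM in unstimulated WT, 56124 to 57586 in HZ and 51132 to 52176 in KO, and to 51723 to 51904, 49287 to 50059 and 50810 to 51338 after stimulation. This sum was highest in unstimulated HZ. Of the 11 genes, 7 were higher and 1 lower in unstimulated HZ against WT, and 2 rose and 9 fell on stimulation in HZ. The 4 basophil markers, nearly all of whose sum was *Cd200r3*, summed to 596 to 601 CPM in unstimulated WT, 673 to 674 in HZ and 470 to 473 in KO, and to 520 to 523, 465 to 472 and 513 to 521 after stimulation. The 4 neutrophil markers summed to at most 0.269 CPM and the 3 T and NK cell markers to at most 0.638. The part of these lists in the members' values was not tested.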

How the data were processed

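RNA of 12 BMMC libraries was measured by RNA-seq. The authors deposited raw read counts per gene and, in a second table, FPKM scaled by gene length and library total. The submitters' processing notes name fastp, HISAT2, HTSeq and build GRCm39, with no versions or roles, and the annotation is not given in the sources used here. All 12 sample columns of each table were used and replicates were not pooled. Groups follow the labels.

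Counts were fitted in R 4.3.3 with edgeR 4.0.16 (TMM, filterByExpr defaults, a mean for each of 6 groups, quasi-likelihood F tests, 6 residual degrees of freedom, biological coefficient of variation 4.01%). Benjamini-Hochberg adjustment of the p-values ran over 12208 genes. Passing took an adjusted p below 0.05, and for differences in response also 1.5-fold. A stricter count added 2-fold, or 1.5-fold (at most 0.66 for lower genes) between stimulated genotypes. The ER stress element was added to the motifs after values were seen. The fit was tested on simulated counts. Libraries of a group differed by more than sampling noise (chi-square per degree of freedom 2.94 to 5.30). DESeq2 1.42.0, other scalings, filters, subsets, a replicate block and leaving out libraries were the alternatives.

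The members and gene lists were chosen with earlier results of these data known. Values of every library are given for members with a 2-fold change and 20 or more counts on average where highest, and for the highest member of each role, and *Tap1*, *Tap2*, *Psmb9*, *Pdia3* and *H2-DMa* were added after their values were seen. Genes of other lists are named where they changed 2-fold, at most 3 a list and comparison. *Psmb5*, *Psmb6* and *Psmb7* are named as counterparts of members. Shared 75-base stretches were counted in GENCODE M21 transcripts (Python 3.11.15, pandas 2.3.3). Gene coordinates on GRCm39 were not used here. Intervals and floors cover counting error only. A further list of cell type markers is not reported here.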

Additional observations from a re-analysis of the deposited data

Results flagged for a closer look

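The response to IgE and antigen together differed between HZ and WT by the interaction test at 1.5-fold. The members were *Calr* (0.99 on the log2 scale, edgeR adjusted p = 1.95e-28) and *H2-Ob* (-1.31, edgeR adjusted p = 1.93e-08). The others were *Tap2* (-0.60, edgeR adjusted p = 1.89e-15) and *H2-Oa* (-0.75, edgeR adjusted p = 0.0452). In *Calr*, *H2-Ob* and *Tap2* the 2 unstimulated HZ libraries lay outside the range of all other libraries. In *H2-Oa* they also did, at 6.88 and 7.25 CPM against at most 5.20 elsewhere, but its value lost the call under 10 of 16 alternatives, with an adjusted p of up to 0.232. The *Tap2* value came to -0.52 at its smallest over the alternatives, which is under 1.5-fold.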

How the results depend on the processing

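Counts are of members passing, higher and then lower. With library totals in place of TMM they became 1 and 19 in the WT response, 2 (higher) in HZ, 0 and 21 in KO, 4 (higher) in stimulated HZ against WT, 3 and 4 in stimulated KO against HZ, and 2 and 1 in the response of HZ minus WT. The values that changed sign were, in WT, *H2-K1* -0.13, *H2-D1* -0.14, *B2m* -0.15, *H2-T23* -0.16, *Erap1* -0.029, *Pdia3* -0.14, *Psmb8* -0.17 and *H2-DMb1* -0.0099; in HZ, *H2-K1* -0.16; and in KO, *H2-K1* -0.21, *H2-D1* -0.19, *Calr* -0.025 and *Pdia3* -0.16. By its construction this scaling moved the median of all genes by -0.31, -0.23 and -0.29 in the WT, HZ and KO responses. Of all 12208 genes tested, 842, 2447 and 858 then passed higher in these responses, and 7397, 5902 and 7296 lower. In stimulated HZ against WT 2631 of all genes passed higher, and in stimulated KO against HZ 1263 passed higher and 1843 lower.

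DESeq2 gave 1 lower in the WT response, 4 higher in stimulated KO against WT, 1 lower in stimulated KO against HZ and 5 lower in the response of HZ minus WT. DESeq2 size factors in edgeR gave 4 higher and 5 lower in stimulated KO against WT, where 2393 and 2497 of all genes passed. They gave 4 and 12 in unstimulated KO against HZ, where 2731 and 2815 of all genes passed, and 5 lower in the response of HZ minus WT. Fitting only the groups compared gave 5 and 7 in stimulated KO against WT. At an adjusted p below 0.01 there were 1 lower in the WT response, 4 lower in the KO response, 3 higher in unstimulated KO against HZ, 4 and 2 in stimulated KO against WT, and 3 and 0 in stimulated KO against HZ. With the fold threshold, 1 higher and 3 lower were left in the HZ response, 1 higher and 0 lower in unstimulated HZ against WT and in KO against HZ, and 0 and 0 in the other 6 comparisons. Without it the response differences held 0 and 6 members for KO minus WT and 3 and 16 for HZ minus WT.

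Same-numbered libraries did not deviate together (correlations -0.03, 0.02 and -0.03). This does not settle whether the numbers mark pairs, because the spread within groups may be technical. With a replicate block the counts were 9 and 3 in the WT, 4 and 15 in the HZ and 4 and 7 in the KO response, 16 and 4 in unstimulated HZ against WT, and 1 and 4 in the response of HZ minus WT.

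Leaving out 1 library gave 8 to 9 higher and 1 to 2 lower in the WT response, 3 to 5 and 12 to 16 in HZ, 2 to 4 and 2 to 5 in KO, 8 to 10 and 2 to 3 in unstimulated KO against WT, 13 to 16 and 3 to 4 in HZ against WT, and 2 to 6 and 8 to 11 in KO against HZ. After stimulation it gave 3 to 7 and 2 to 3 in KO against WT, 1 to 2 and 3 to 5 in HZ against WT, and 2 to 5 and 0 to 2 in KO against HZ. The response of HZ minus WT held 1 to 2 higher and 2 to 4 lower. Without stimulated WT replicate 1 stimulated KO against WT held 3 and 2, and without stimulated KO replicate 2 it held 4 and 2; unstimulated KO against HZ held 2 higher without unstimulated HZ replicate 1 or KO replicate 2; and the KO response held 2 higher without unstimulated KO replicate 1 and 4 lower without unstimulated KO replicate 2 and 2 without stimulated KO replicate 1. The WT response held 1 lower without unstimulated WT replicate 2 or either stimulated WT library. Stimulated HZ against WT held 3 lower without stimulated WT replicate 1 and 2 higher without stimulated HZ replicate 1. Stimulated KO against HZ held 3 higher without stimulated HZ replicate 1 and 2 without stimulated KO replicate 2, with 1 lower without stimulated KO replicate 1 and 0 without replicate 2 of either group. The response of HZ minus WT held 2 higher without stimulated WT replicate 2 or HZ replicate 1. Over the members' log2 values, leaving out a library kept direction and an adjusted p below 0.05 in 388 cases, lost that p in 104 and reversed 0. The other alternatives did so in 824, 42 and 13 cases. These counts cover only the log2 values that passed in the fit of all 12 libraries with TMM, so calls gained under an alternative are not in them. The 1.5-fold threshold on differences in response was used to choose these values, but was not applied under the alternatives. The cause of these changes was not tested.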
